A study of Homo sapiens with 6 samples.

Results

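Long intergenic noncoding RNAs (lincRNAs) are transcripts with little or no protein-coding potential whose genes lie between protein-coding genes. Here they are all rows that the deposited table of DU145 expression values assigns to the biotype lincRNA, which gave 340 of the 10542 listed genes. The other large classes of the table were 9222 protein-coding genes and 359 antisense genes. DU145 cells are a long-established line from a human prostate cancer, and transcription factor EB (TFEB) is a basic helix-loop-helix factor known for switching on genes of lysosomes and autophagy. The study asked what TFEB overexpression changes in these cells. DU145-TFEB cells carried a TFEB-overexpression lentivirus, and the control DU145-vector cells carried the blank vector lentivirus. Both lines had been through puromycin selection, so that the control shares transduction and selection with the TFEB line. Whether a line was a pool or a single clone, and which promoter drove the transgene, was not given in the sources used here. Each group had 3 libraries from polyA RNA, and nothing says that they came from separate cultures, so the p-values measure the spread between these libraries, which may be technical.

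LincRNAs have no shared mechanism. Some act in the nucleus, where they scaffold proteins or keep a chromatin or splicing-related body in place, and some act in the cytoplasm as decoys for RNA-binding proteins. Others matter mainly as precursors, because microRNAs or small nucleolar RNAs are cut from their introns or exons, and many begin at the promoter of a coding gene and run away from it on the opposite strand. As a class they are shorter, have fewer exons and are less abundant than messenger RNAs.

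TFEB itself stood at 6325, 6301 and 6036 normalized counts in DU145-TFEB and at 127, 124 and 125 in DU145-vector, a 49.6-fold difference of the means in the labelled direction. The epithelial keratin genes were abundant in all 6 libraries but lower in DU145-TFEB, KRT8 with a mean of 16978 against 26868 normalized counts (adjusted p = 0.000663, limma) and KRT18 with 6385 against 10842 (0.000328). Their part in the lincRNA results was not tested. The listed genes held 13999961 to 16511477 reads per library. The table is itself a selection: 10539 of its 10542 genes (100%) passed an adjusted p of 0.05 in limma, and in 99.3% the values of the 2 groups did not overlap. Genes that did not differ are therefore almost absent, and that a listed lincRNA differed is no finding. What can be compared is direction, size and abundance, and the median log2 fold change of all listed genes, −0.36, is the level against which the lincRNA values are read below.

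More of the lincRNAs were higher than lower in DU145-TFEB. At adjusted p below 0.05 (limma, Benjamini-Hochberg adjustment over all 10542 genes), 197 of the 340 were higher and 143 lower, that is 57.9% higher, against 47.6% higher and 52.4% lower among all listed genes. The median log2 fold change of the lincRNAs was 0.69, that of the protein-coding genes −0.37, and that of the antisense genes 0.70. The values ran from −3.15 to 3.05. In 338 of the 340 the groups did not overlap, the exceptions being AC010359.1 and AL391095.1. In bulk RNA, less RNA per cell and fewer cells with the RNA cannot be told apart.

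Among the larger changes called by limma in the deposited scale, more lincRNAs were lower than higher. All listed genes were split that way too, 268 higher and 1741 lower, and in this fit lincRNA shares were above theirs on both sides. The paper used a cutoff of adjusted p below 0.05 and a log2 fold change beyond 1.5 in size, with DESeq2. With this cutoff on the limma fit, 41 lincRNAs were higher (12.1%, against 2.54% of all listed genes) and 79 were lower (23.2%, against 16.5%). On the lower side the lincRNA share fell below that of all listed genes with at least 10 reads in every library (12 of 210 against 1327 of 9783). A pseudocount of 5 had the same effect (27 of 340 against 1372 of 10542). These splits moved with the scaling. Size factors recomputed over the listed genes gave 73 higher and 65 lower, quantile normalization 80 and 33, and DESeq2 on the recovered reads 72 and 66. All listed genes gave 466 and 1104, 563 and 808, and 484 and 1078 there. In the same 3 alternatives the median of all listed genes became −0.12, −0.03 and −0.12, and that of the lincRNAs 0.92, 1.01 and 0.94. The distance between the lincRNA median and the median of all listed genes stayed between 0.981 and 1.096 under every scaling, pseudocount, read filter and left-out library tried. It fell to 0.34 once the trend of the fold change with GC content and length was removed.

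Most lincRNAs were sparse. Their median mean count over the 6 libraries was 41.7, against 557 for all listed genes, and per kilobase of exon it was 22.2 against 104. Only 210 had at least 10 reads in every library, and 26 had no read in at least 1 library. The best measured lincRNAs, those with a mean of at least 50 normalized counts, numbered 152, another 133 had a mean of 10 to 50, and 55 lay below 10. At that threshold AC016355.1, with a mean of 49.9, and CH17-340M24.3, with 49.97, fell just outside, and BLACAT1, with 50.8, and AC006058.1, with 51.1, just inside.

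Direction and size went with abundance. Of the 152 best measured lincRNAs 105 were higher and 47 lower, and the median log2 fold change was 0.72. At a mean of 10 to 50 the split was 74 to 59 with a median of 0.96, and below 10 it was 18 to 37 with a median of −1.99. The smallest difference listed was 0.35 in the best measured band, 0.75 in the middle band and 1.37 below 10, so that a sparse lincRNA had to differ more to be listed at all. In all, 53 of the 55 sparsest passed the cutoff of 1.5, 16 higher and 37 lower, but only 18 of the best measured did, 6 higher (3.95%, against 2.54% of all listed genes) and 12 lower (7.89%, against 16.5%). That last split was 17 to 6 with recomputed size factors, 19 to 6 with quantile normalization, and 7 to 5 without DU145-TFEB library 2. The direction of the larger changes among the best measured lincRNAs thus depends on the scaling and on that library. Over all listed genes, leaving that library out took the larger decreases from 1741 to 1289. The plot of level against change shows the narrowing from left to right.

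**Figure D1:**
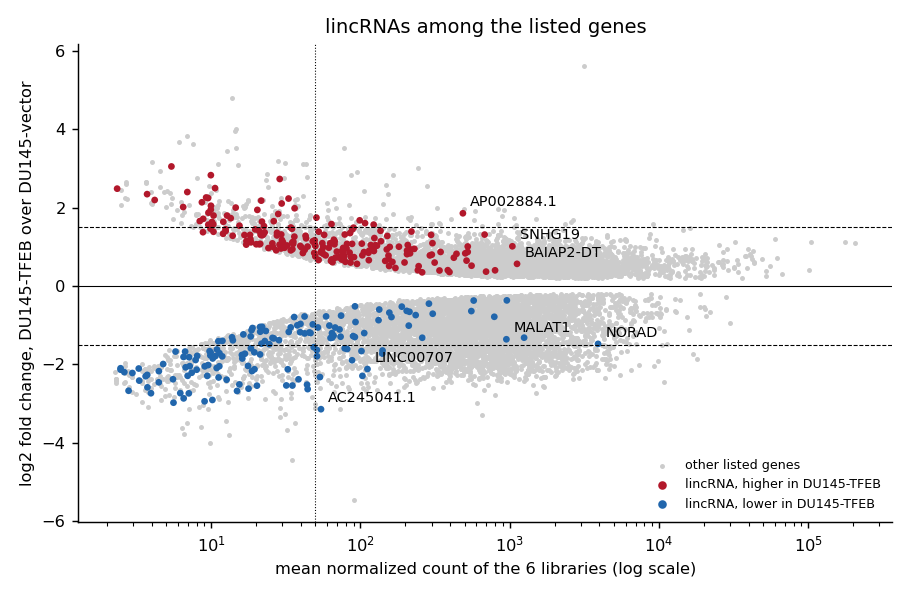
Each point is a listed gene, placed by its mean normalized count over the 6 libraries (log scale) and its log2 fold change, DU145-TFEB over DU145-vector; the 197 higher lincRNAs are red, the 143 lower ones blue and other genes grey. The dotted line marks the mean of 50 and the dashed lines the log2 cutoffs of 1.5 in either direction; the empty wedge around 0 shows that few unchanged genes are listed, and that it widens as counts fall.

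The lincRNAs together took the same small part of the listed counts in both groups. They made up 0.271%, 0.248% and 0.270% of the normalized counts in DU145-TFEB and 0.260%, 0.264% and 0.255% in DU145-vector, means of 0.263% ± 0.0131 and 0.260% ± 0.00481 (SD, n = 3 each). The groups overlapped, and the exact permutation test gave a 2-sided p of 0.7, where 3 against 3 libraries cannot go below 0.1. The sign of the difference turned when DU145-TFEB library 1 or library 3 was left out. Within the sum the 197 higher lincRNAs went from 0.112% ± 0.00691 to 0.198% ± 0.00481 and the 143 lower ones from 0.148% ± 0.0103 to 0.0650% ± 0.0109, a split that their choice by direction fixes. A single RNA weighed much in it. NORAD alone held 10.3% of all lincRNA counts, the top 5 held 21.8% and the top 20 held 45.5%, and without NORAD the share was 0.249% ± 0.0103 in DU145-TFEB and 0.219% ± 0.00257 in DU145-vector, with all 3 DU145-TFEB libraries above the others (exact permutation p = 0.1, the smallest possible).

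NORAD, a cytoplasmic RNA induced by DNA damage and known for binding Pumilio proteins, was the most abundant lincRNA by count. Its gene (ENSG00000260032) is a single exon of 5339 bases at chr20:36045622-36050960 on the minus strand (GRCh38). It had 2158, 1601 and 2515 normalized counts in DU145-TFEB and 5660, 6147 and 5407 in DU145-vector. Every DU145-TFEB library lay below every DU145-vector library, and the log2 fold change was −1.48 ± 0.14 (SE; adjusted p = 1.44e-05, limma). Of its 50-base windows, 35.3% also occur in other annotated genes, 22.7% in OVCH1-AS1 alone, so reads from such copies could be assigned to it or lost from it.

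The other members of the top 5 by count were EBLN3P, BAIAP2-DT, SNHG19 and SNHG4. EBLN3P, a spliced transcript at chr9:37079857-37090507 that carries a bornavirus-like pseudogene, had 782, 518 and 884 normalized counts in DU145-TFEB and 1750, 1807 and 1766 in DU145-vector. It was lower in all 3 DU145-TFEB libraries, with a log2 fold change of −1.32 ± 0.17 (SE; adjusted p = 6.67e-05, limma) that became −0.49 with the trend of GC content and length removed. BAIAP2-DT, which starts 241 bases from the start of BAIAP2 on the opposite strand, had 1371, 1353 and 1288 against 964, 816 and 938 and was higher by 0.56 ± 0.09 (SE; adjusted p = 0.00022, limma). Under the same removal its value was −0.32, where the median of all listed genes was −0.30. SNHG19 and SNHG4, both hosts of small nucleolar RNAs, come with the precursor RNAs below.

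Counts favour long transcripts, and per kilobase the order was different. SNHG19, with only 342 exonic bases, led with 3052 normalized counts per kilobase, followed by AC009414.2 with 1433, NORAD with 733, SFTA1P with 697 and AP002360.1 with 669. AC009414.2 is a short transcript of 366 bases, and it was higher in DU145-TFEB, at 706, 707 and 675 normalized counts against 414, 259 and 385. SFTA1P went the other way by a smaller step, from a mean of 649 ± 49.1 to 500.4 ± 23.5 (SD, n = 3), a log2 fold change of −0.37, or −0.23 after trend removal. MALAT1, which ranks high by count, had 108 per kilobase.

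**Figure D2:**
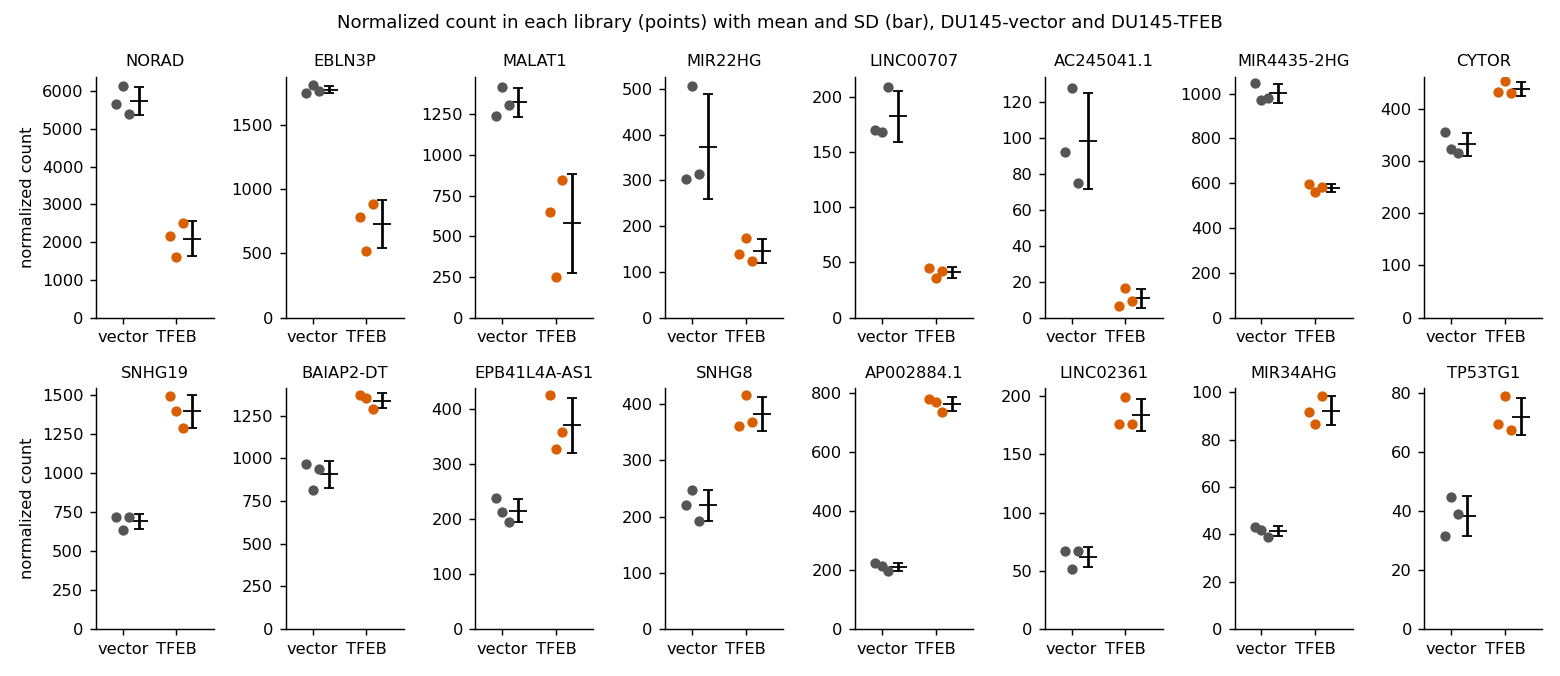
Each panel gives 1 lincRNA on its own linear axis starting at 0, with the normalized count of each DU145-vector library in grey and each DU145-TFEB library in orange; the bar beside the points is the mean with its SD (n = 3). In all 16 panels the 3 libraries of one group lie above the 3 of the other, and NORAD, EBLN3P, MALAT1, MIR22HG, LINC00707, AC245041.1 and MIR4435-2HG are the panels in which DU145-vector is the higher group.

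CYTOR is the other cytoplasmic lincRNA of the list used here, of whose 12 symbols only these 2 are lincRNAs of the table. It had 433, 454 and 430 normalized counts in DU145-TFEB against 357, 324 and 316 in DU145-vector, a log2 fold change of 0.40 ± 0.10 (SE; adjusted p = 0.00344, limma) that was 0.85 with quantile normalization and 1.23 after trend removal. The paralogous MIR4435-2HG, on the other arm of chromosome 2, went the opposite way: 597, 559 and 582.5 against 1049, 971 and 981, or −0.79 ± 0.08 (SE; adjusted p = 1.98e-05, limma), and −0.51 after trend removal. The groups did not overlap for either. MIR4435-2HG shares 45.5% of its 50-base windows with CYTOR, and CYTOR shares 19.1% with MIR4435-2HG, so the division of reads between the pair is uncertain.

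Of 17 symbols of nuclear and chromatin-bound lncRNAs, MALAT1 and FTX were lincRNAs of the table, and both were lower. MALAT1, an abundant RNA of nuclear speckles, had 651, 247 and 843 normalized counts in DU145-TFEB and 1241, 1420 and 1309 in DU145-vector. The groups did not overlap, but DU145-TFEB library 2 lay far under the other two, the SD of that group was 305 at a mean of 580.4, and the log2 fold change of −1.36 had an SE of 0.36 (adjusted p = 0.00508, limma). DESeq2 gave an adjusted p of 0.0534 and the trend-removed fit −0.44 with 0.174, so this call does not hold under either. Without DU145-TFEB library 2 the fold change was −0.83. Its mature 3′ end carries no standard poly(A) tail, and these libraries were made from polyA RNA. FTX, a noncoding gene of the X-inactivation centre that hosts microRNAs, was less abundant, at 49.4, 24.6 and 43.6 against 87.2, 113 and 79.0, or −1.27 ± 0.28 (SE; adjusted p = 0.00168, limma). After trend removal its value was 0.04. Among the 22 symbols of prostate cancer lncRNAs, MALAT1 was the single lincRNA of the table.

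Precursors of small RNAs formed the largest functional group. By annotation 17 lincRNAs contain a microRNA or small nucleolar RNA gene on their strand, and 8 of these were higher (47.1%, against 47.6% of all listed genes) and 9 lower. The median log2 fold change of the 17 was −0.37, against −0.36 for all listed genes. The mature small RNAs were not measured, and a host transcript need not follow them. The sequences below are RefSeq mature microRNAs of 8 of these hosts, chosen after their values were seen, 5′ to 3′, with the seed (bases 2 to 8) in capitals. They show which hosts carry the same seed and which do not.
hsa-miR-22-3p (in MIR22HG): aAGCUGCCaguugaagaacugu
hsa-miR-34a-5p (in MIR34AHG): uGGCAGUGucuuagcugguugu
hsa-miR-503-5p (in MIR503HG): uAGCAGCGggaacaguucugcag
hsa-miR-221-3p (in MIR222HG): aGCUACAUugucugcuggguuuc
hsa-miR-222-3p (in MIR222HG): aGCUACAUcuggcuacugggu
hsa-let-7i-5p (in AC048341.1): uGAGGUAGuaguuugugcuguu
hsa-miR-30a-5p (in LINC00472): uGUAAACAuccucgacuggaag
hsa-miR-30c-5p (in LINC00472): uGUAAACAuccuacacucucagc
hsa-miR-4435 (in MIR4435-2HG and CYTOR): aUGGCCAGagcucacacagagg

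MIR22HG (chr17:1711493-1717174, minus strand), with miR-22 at chr17:1713914-1713935, had 140, 175 and 124 normalized counts in DU145-TFEB and 302, 506 and 313 in DU145-vector. All 3 DU145-TFEB libraries were below the others, with a log2 fold change of −1.32 ± 0.21 (SE; adjusted p = 0.000282, limma). MIR34AHG, the host of the p53-induced miR-34a, moved upward, from 43.1, 41.9 and 39.0 in DU145-vector to 91.5, 86.4 and 98.6 in DU145-TFEB, or 1.14 ± 0.17 (SE; adjusted p = 0.000164, limma). These 2 hosts carry different seeds and went in opposite directions.

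MIR222HG and LINC00472, each shown with 2 microRNAs of 1 seed, were both lower and both sparse, and like MIR503HG and AC048341.1 they are named here after their values were seen. MIR222HG, which contains miR-221 and miR-222 with the common seed GCUACAU, had 19.99, 2.73 and 10.4 normalized counts against 26.5, 33.2 and 35.0 (log2 fold change −1.75 ± 0.54, SE). LINC00472, with miR-30a and miR-30c and the common seed GUAAACA, had 14.7, 7.28 and 16.6 against 32.4, 38.0 and 19 (−1.17 ± 0.38). In both, DU145-TFEB library 2 was the lowest of the 6. AC048341.1, which contains let-7i, had the largest decrease of the hosts, 7.37, 2.73 and 6.23 against 26.5, 41.9 and 37.0 (−2.54 ± 0.37). After trend removal MIR222HG was at −0.90 and AC048341.1 at −1.64. MIR503HG was higher, at 54.7, 52.8 and 70.6 against 22.5, 33.2 and 32.0 (1.00 ± 0.23).

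Small nucleolar RNAs guide the modification of other RNAs, mainly ribosomal RNA. Of their 5 annotated hosts 4 were higher, among them LINC02001 with a log2 fold change of 0.65. Among all listed genes 47.6% were higher and among all lincRNAs 57.9%, and a count over 5 hosts is a description. SNHG19 (chr16:2154797-2155358), the host of SNORD60, had 1498, 1400 and 1290 normalized counts against 720, 636 and 719, or 1.01 ± 0.09 (SE; adjusted p = 9.93e-06, limma). SNHG8, the host of SNORA24, had 362, 417 and 369 against 221, 248 and 192, a log2 fold change of 0.80. EPB41L4A-AS1, the host of SNORA13, had 425, 327 and 358 against 237, 212 and 195, a log2 fold change of 0.78. The groups stayed apart in these 3 hosts, and trend removal left them at 0.33, 0.71 and 1.00. SNHG4 was the exception, at 862, 716 and 934 against 1076, 1204 and 959, or −0.37 ± 0.12 (SE; adjusted p = 0.0139, limma). Its exons overlap those of MATR3 and SIL1, and its call was lost with recomputed size factors (adjusted p = 0.29), in DESeq2 (0.337) and without DU145-vector library 2 (0.0599). PVT1, the noncoding neighbour of MYC, contains microRNA genes and had 903, 962 and 864 against 679, 684 and 704, a log2 fold change of 0.40 that became −0.08 after trend removal. Over the 11 lincRNAs of the list of known small RNA hosts 6 were higher (54.5%, against 47.6% of all listed genes) and 5 lower. Their median was 0.40, against −0.36 for all listed genes and −0.37 for the 17 hosts by annotation.

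The lincRNAs linked to p53 went both ways. Of 14 symbols, 4 were lincRNAs of the table: NORAD and MIR22HG were lower and MIR34AHG and TP53TG1 higher. TP53TG1, named as a p53 target, starts 166 bases from the start of CROT on the opposite strand. It had 69.5, 79.2 and 67.5 normalized counts in DU145-TFEB and 31.4, 44.9 and 39.0 in DU145-vector, with no overlap, or 0.90 ± 0.20 (SE; adjusted p = 0.00192, limma). The 4 kept their signs with GC content and length taken out, at −0.81, −1.63, 0.70 and 0.76.

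The 6 best measured lincRNAs that passed the upper cutoff were AP002884.1, BLACAT1, AC132872.1, AC116351.2, U73166.1 and LINC02361. AP002884.1 was the most abundant of them by far. This gene of 7 exon blocks at chr11:112270749-112362534 starts 794 bases beyond the end of PTS on the same strand, and it had 781, 771 and 736 normalized counts in DU145-TFEB against 223, 213 and 196 in DU145-vector. The log2 fold change was 1.85 ± 0.10 (SE; adjusted p = 2.3e-06, limma), and it stayed beyond 1.5 in each of the 16 alternatives run, the lowest being 1.60 after trend removal. PTS itself is not among the listed genes.

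The remaining 5 were smaller and less stable around the cutoff. BLACAT1, an RNA first described in bladder cancer, had 96.8, 61.0 and 74.8 normalized counts against 26.5, 11.7 and 34.0 (log2 fold change 1.74 ± 0.36, SE), its exon overlaps LEMD1 on the same strand, and without DU145-vector library 2 the value was 1.32. AC132872.1 had 193, 106 and 159 against 45.1, 46.8 and 45.0 (1.67 ± 0.22) and 1.48 without DU145-TFEB library 1. LINC02361 had 176, 199 and 176 against 66.65, 51.7 and 67.0 (1.57 ± 0.16) and 1.44 without DU145-vector library 2. The groups were apart in each. AC116351.2 rose from a mean of 53.5 ± 13.1 to 162 ± 5.07 (SD, n = 3) and U73166.1 from 31.5 ± 10.9 to 96.6 ± 31.2. U73166.1, with a log2 fold change of 1.58, was the least stable, at 1.40 without DU145-TFEB library 1, 1.46 without DU145-TFEB library 3, 1.45 and 1.44 without DU145-vector library 2 or 3, and 1.46 with a pseudocount of 5. Trend removal brought BLACAT1, AC116351.2, U73166.1 and LINC02361 below the cutoff, to values between 0.55 and 1.30.

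The 8 lowest of the best measured lincRNAs spanned log2 fold changes of −3.15 to −1.66, and 6 of them are single-exon genes. AC245041.1 (chr10:47970043-47973496) had the largest decrease, with 6.31, 16.4 and 9.35 normalized counts in DU145-TFEB against 92.1, 128 and 75 in DU145-vector, or −3.15 ± 0.34 (SE; adjusted p = 2.64e-05, limma). LINC00707 (chr10:6779549-6879450) had 45.3, 35.5 and 42.6 against 170, 168 and 209, or −2.12 ± 0.17 (SE; adjusted p = 6.54e-06, limma). LINC01963 had 35.8, 24.6 and 41.5 against 193, 211 and 114, or −2.29 ± 0.28. These 3, each with its libraries well apart, stayed beyond −1.5 in every alternative that could be run for them, trend removal included. Exons of LINC00707 overlap those of 3 other genes on its strand, so its reads cannot be told from theirs.

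AC107068.1, AC015813.1, AL356019.2, AP003486.1 and AC005261.1 completed the lower set. AC107068.1, which begins 2894 bases beyond the end of NFXL1 on the same strand, had 29.5, 5.46 and 26.0 normalized counts against 84.3, 99.5 and 77.0, or −2.33 ± 0.51 (SE; adjusted p = 0.00181, limma). AP003486.1 had 61.0, 45.5 and 93.5 against 211, 224 and 206, a log2 fold change of −1.73, and AC005261.1 had 47.4, 34.6 and 66.4 against 169, 135 and 159, a log2 fold change of −1.66. DU145-TFEB library 2 was the lowest of the 6 libraries in all 5. Without it AL356019.2, AP003486.1 and AC005261.1 stood at −1.38, −1.49 and −1.43, inside the cutoff. After trend removal all 5 were inside it, at values between −1.43 and −0.71. AP003486.1 and AC005261.1 were also inside it with recomputed size factors (−1.49 and −1.43), quantile normalization (both −1.38) and DESeq2 (−1.45 and −1.41). AL356019.2 lies within an exon of TTC5 and AC015813.1 overlaps AC015813.2, each on the same strand, so their reads cannot be told from those of the overlapping gene.

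Composition separated the higher from the lower lincRNAs. The 197 higher ones had a median GC content of 53.6% and a median exonic length of 1419 bases, the 143 lower ones 42.6% and 2830 bases. The lincRNAs were cut into 4 groups of 85 by GC content. From the most AT-rich to the most GC-rich group, 11, 36, 68 and 82 of 85 were higher. Protein-coding genes within the same GC limits showed a like order, with 4.04%, 22.05%, 77.8% and 97.3% higher. Across the 340 lincRNAs Spearman's rho between GC content and log2 fold change was 0.608, across the 152 best measured 0.631 and across 10537 listed genes 0.739. Genes are not independent replicates and share the 6 libraries, so these values are descriptions.

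The lincRNAs did not simply repeat the coding genes at the same GC content, as the plot of change against GC content shows. Between 45% and 50% GC the median log2 fold change was 0.66 over 67 lincRNAs and −0.51 over 1260 coding genes, and between 50% and 55% it was 0.95 over 70 against 0.45 over 1132. Between 35% and 40% it was −1.75 over 31 lincRNAs and −1.37 over 1617 coding genes. With the trend over GC content and length subtracted, the lincRNA median was 0.03, against −0.30 for all listed genes, 175 lincRNAs were above 0 and 165 below, 40 changed sign, and 105 were higher and 112 lower at adjusted p below 0.05. Because the lincRNAs are sparser than the coding genes and sparse genes were listed only with large differences, the part of abundance in these gaps was not tested.

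**Figure D3:**
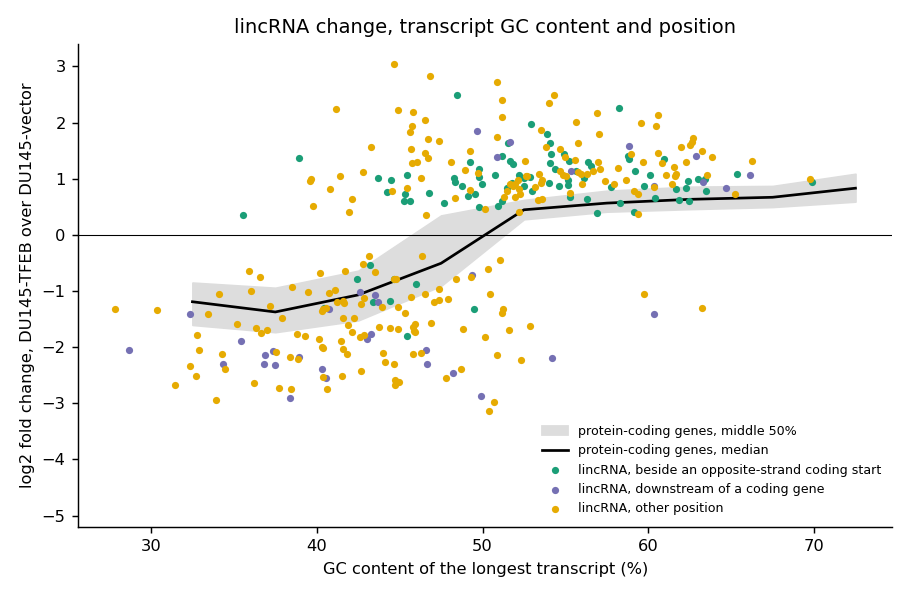
Each point is 1 of the 340 lincRNAs, placed by the GC content of its longest transcript and its log2 fold change, DU145-TFEB over DU145-vector, and coloured by position relative to coding genes; the black line and grey band are the median and middle 50% of the protein-coding genes in 5% GC bins. Below 45% GC most lincRNAs lie under 0, above 50% most lie over it, and green points (beside an opposite-strand coding start) are mostly above 0 at every GC content where they are frequent.

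The 4 best measured lincRNAs whose value moved most across 0 after trend removal lie at the extremes of this scale. AL390728.6, with 27.8% GC, had 52.6, 18.2 and 41.5 normalized counts in DU145-TFEB and 63.7, 138 and 74.0 in DU145-vector, and its log2 fold change went from −1.32 to 0.54. AC093702.1, with 69.8% GC, had 201, 234 and 190 against 126, 73.1 and 120 and went from 1.00 to −0.54. AC015912.3 at 63.5% GC went from 0.77 to −0.41, and FTX at 37.2% from −1.27 to 0.04. The signs of these 4 against 0 were thus not kept after trend removal. That fit keeps the mean level of the listed genes, whose median was −0.30. Its 0 is therefore not the level of genes of like composition.

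Position relative to coding genes also went with direction. Of the 340, 85 start within 1000 bases of the start of a coding gene on the opposite strand, here called divergent. Of these 85, 76 were higher (89.4%, against 47.6% of all listed genes) and 9 lower, with a median of 0.93. Another group of 37 start within 5000 bases beyond the end of a coding gene on their own strand, here called downstream, 2 of them also divergent. Of these 37, 12 were higher (32.4%) and 25 lower, with a median of −1.41. The other 220 were evenly split, 111 to 109, with a median of 0.36. Among the best measured members 45 of 50 divergent ones were higher, but so were 8 of 12 downstream ones. The divergent lincRNAs were GC-rich, with a median of 52.5%. Within the first of the 4 GC groups 2 of 4 divergent lincRNAs were higher against 9 of 81 others. Within the second of the 4 GC groups 14 of 20 divergent lincRNAs were higher against 22 of 65 others, within the third 29 of 30 against 39 of 55, and within the fourth 31 of 31 against 51 of 54. After trend removal the fourth group went the other way, with 15 of 31 divergent lincRNAs above 0 (median −0.0080) against 37 of 54 others (median 0.25), while in the 2 groups before it the counts were 14 of 20 against 23 of 65 and 29 of 30 against 38 of 55. Over all 4 groups the trend-removed divergent median was 0.48, with 60 of 85 above 0, and the downstream median −0.84, with 8 of 37 above 0.

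Many divergent lincRNAs did not share the direction of the coding gene at their start region. For 70 of the 85 that gene is listed, and 37 of the 70 pairs (52.9%) went the same way, 30 both higher and 7 both lower. In 32 pairs the lincRNA was higher and the coding gene lower, and in 1 pair the reverse. Among all listed genes 47.6% were higher and 52.4% lower. With most divergent lincRNAs higher, unlike directions would thus be frequent in any pairing with listed genes. Whether these pairs differ from such pairings was not tested. The medians were 0.94 for these lincRNAs and −0.51 for their neighbours, at median GC contents of 52.0% and 47.2%. After trend removal the 2 medians were 0.57 and −0.45, where that of all listed genes was −0.30. In that fit 28 of the 70 pairs went the same way. The pairs named in the following are examples chosen after their values were seen. FLVCR1-DT, 167 bases from FLVCR1, which encodes a heme exporter, had 545, 550.5 and 484 normalized counts in DU145-TFEB against 353, 281 and 326 in DU145-vector. FLVCR1 itself had 379, 339 and 394 against 890, 1113 and 866. The log2 fold changes were 0.72 and −1.36.

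AP002360.1, 267 bases from the chromatin gene EMSY, showed the same opposition. It had 599.8, 779 and 568 normalized counts against 358, 367 and 357, a log2 fold change of 0.83, and EMSY had 294, 231 and 376 against 880, 943 and 889, a log2 fold change of −1.61. EIF3J-DT and SCAMP1-AS1 were higher by 0.50 and 0.60, and their neighbours EIF3J, a translation initiation factor gene, and SCAMP1 were lower, with −1.20 and −1.37. Trend removal left these 2 lincRNAs at 0.18 and 0.11, and EIF3J and SCAMP1 at −0.46 and −0.26. It left AP002360.1 at 0.56 and EMSY at −0.86, and FLVCR1-DT at 0.84 and FLVCR1 at −0.77. SNHG19 is a member of a pair in which both rose, by 1.01 for the lincRNA and by 0.75 for TRAF7, which encodes a ubiquitin ligase. MIR22HG was the single pair of the reverse kind, at −1.32 beside WDR81 at 0.69.

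Downstream lincRNAs mostly went the way of the gene before them. Of 26 with a listed upstream gene, 24 (92.3%) went the same way, 18 both lower and 6 both higher, with medians of −1.97 for the lincRNAs and −0.77 for the genes. AC048341.1 was at −2.54 beside MON2 at −1.66, AC107068.1 at −2.33 beside NFXL1 at −1.77, and AC102953.2 at 0.87 beside INTS1 at 0.88, which became −0.12 and −0.09 after trend removal. Pearson's r across the 26 pairs was 0.72 and across the 70 divergent pairs 0.18. After trend removal it was 0.09 for the divergent pairs and −0.05 for the downstream pairs, with 19 of these 26 in the same direction. Both members of a pair share libraries and base composition, and reads running past the end of the upstream gene would be counted for the downstream lincRNA. How much such reads contribute was not tested, since strand and counting settings are not given in the sources used here.

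**Figure D4:**
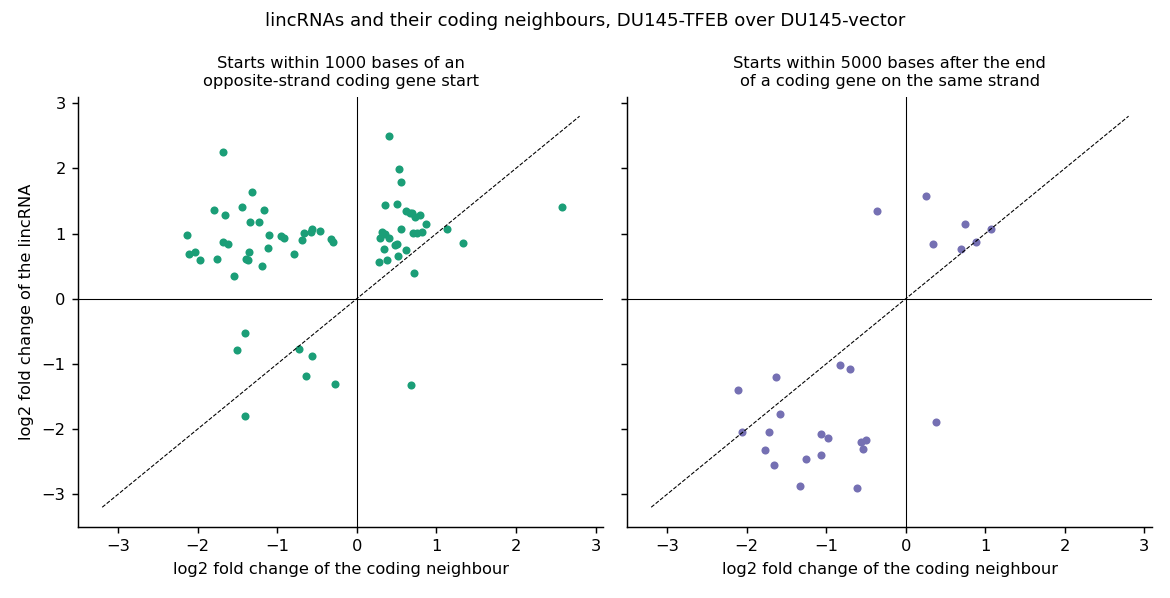
Each point is a lincRNA with its listed coding neighbour, the log2 fold change of the neighbour on the horizontal and of the lincRNA on the vertical axis, DU145-TFEB over DU145-vector; the dashed line marks equal change. On the left, 32 of the 70 divergent pairs sit in the upper left field, with the lincRNA higher and the coding gene lower; on the right, 24 of the 26 downstream pairs sit in the lower left or upper right field.

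The excess of higher lincRNAs was also present where no other gene overlaps. The bodies of 197 lincRNAs overlap no other annotated gene, where genes of microRNAs and of small nucleolar, small nuclear and miscellaneous RNAs were not counted. Of these 197, 121 were higher (61.4%, against 47.6% of all listed genes) and 76 lower, with a median of 0.87. In 90 an exon overlaps an exon of another gene, and there the split was 50 (55.6%) to 40 with a median of 0.40. LINC00707, FTX, CYTOR, MIR4435-2HG, EPB41L4A-AS1 and MIR34AHG are among these 90, with SNHG4, BLACAT1 and the others named above. For LINC00707, CYTOR, MIR4435-2HG, SNHG4 and BLACAT1 an overlapping gene lies on the same strand, so that even a known strand would not separate these reads. For FTX, EPB41L4A-AS1 and MIR34AHG the overlap is with the opposite strand only, and without knowledge of the strand the reads cannot be told apart. Of the 340 lincRNAs, 126 shared some of their 50-base windows with other genes. Extensive sharing was rare: counted over all other genes together, 7 shared at least 50% of their windows and 23 at least 10%.

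TFEB binds E-box sequences with the letters CACGTG, which reads the same on both strands, and the longer form TCACGTGA occurs in the element found at its lysosomal targets. Promoters of 300 bases (250 before to 50 after the RefSeq start, GRCh38.p14) were matched for 87 lincRNAs, and 79 of these have a start within 1000 bases of the start in the table. CACGTG occurred in 9 of the 79 (11.4%), against 7.26% of the 35116 promoters of the whole RefSeq table, and TCACGTGA, which contains it, in 2 (2.53%) against 0.980%. The lincRNA promoters were also richer in GC, with a median of 65.7% against 58.7%. By direction, 7 of 60 promoters of higher lincRNAs (11.7%) and 2 of 19 of lower ones (10.5%) held CACGTG. A match of letters is a description and shows no binding.

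The promoters of NORAD, the most abundant member, and of LINC01703 and NUP50-DT, 2 higher members, are shown with CACGTG in capitals, 5′ to 3′ on the strand of the gene. In NORAD the motif begins 138 bases before the start and in LINC01703 46 bases before it, where the letters around it also complete TCACGTGA. In NUP50-DT it begins at base 25 after the start.
NORAD, chr20:36050911-36051210, minus strand: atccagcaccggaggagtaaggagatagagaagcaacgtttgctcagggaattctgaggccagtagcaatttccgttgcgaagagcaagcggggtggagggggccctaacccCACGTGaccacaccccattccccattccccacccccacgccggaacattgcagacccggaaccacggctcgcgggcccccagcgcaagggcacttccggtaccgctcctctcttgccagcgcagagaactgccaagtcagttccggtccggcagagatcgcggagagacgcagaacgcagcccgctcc
LINC01703, chr1:226083325-226083624, plus strand: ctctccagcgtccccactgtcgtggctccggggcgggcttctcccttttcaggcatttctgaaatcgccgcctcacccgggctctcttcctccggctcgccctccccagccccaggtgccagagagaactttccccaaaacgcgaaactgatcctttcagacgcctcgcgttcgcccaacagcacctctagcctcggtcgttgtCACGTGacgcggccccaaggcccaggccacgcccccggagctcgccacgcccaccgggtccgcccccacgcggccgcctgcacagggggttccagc
NUP50-DT, chr22:45163732-45164031, minus strand: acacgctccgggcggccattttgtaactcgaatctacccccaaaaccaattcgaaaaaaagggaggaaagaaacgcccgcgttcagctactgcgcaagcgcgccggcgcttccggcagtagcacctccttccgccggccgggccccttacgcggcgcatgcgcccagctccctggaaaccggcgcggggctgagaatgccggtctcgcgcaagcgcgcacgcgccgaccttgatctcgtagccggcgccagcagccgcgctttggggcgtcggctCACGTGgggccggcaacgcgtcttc

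NORAD was lower, as given above. LINC01703 had 116, 131 and 93.5 normalized counts in DU145-TFEB and 76.5, 52.7 and 75 in DU145-vector, with no overlap, or 0.73 ± 0.21 (SE; adjusted p = 0.00649, limma). Trend removal turned it to −0.42. NUP50-DT, divergent from the nucleoporin gene NUP50, had 80.0, 91.0 and 97.6 against 66.65, 38.0 and 44.0, or 0.88 ± 0.23 (SE; adjusted p = 0.00456, limma). Both were chosen for their promoter match after their values were seen. The match thus occurred beside lincRNAs of either direction.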

How the data were processed

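Poly(A) RNA was sequenced from DU145-TFEB and DU145-vector cells, 3 libraries each. The submitters' processing notes name CASAVA 1.8, HISAT2 2.1.0, edgeR and GRCh38. The counting program, its annotation and its strand setting are not given in the sources used here. The deposited unit is a normalized count signal: the authors divided each library's gene counts by 1 size factor (0.950 to 1.10). Whole reads were recovered for 100.0% of values in each library (tolerance 0.001). The authors' means, fold changes and p-values in the table were not used. Exonic lengths equal GENCODE 29 exon unions for 10542 of 10542 genes.

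The main test was limma 3.58.1 (trended prior) on log2(normalized count + 1) over all 10542 listed genes, with no low-value filter and Benjamini-Hochberg adjustment. The log2 scale understates changes of sparse genes. Larger changes were adjusted p below 0.05 and a log2 fold change beyond 1.5. The paper names DESeq2 as the test for its own use of this cutoff. Shares of counts were compared by exact 2-sided permutation. Alternatives were pseudocounts of 0.5 and 5, at least 10 reads in every library, 3 other scalings, DESeq2 1.42.0 and edgeR 4.0.16 (R 4.3.3) on the recovered reads, a replicate block, members overlapping no other gene, each library left out, and removal of a loess trend (span 0.5) of the fold change over GC content and length. Trend removal kept the mean level of the listed genes, so its 0 is not the level of genes of like composition. The scripts were tested on simulated data. On the recovered reads DESeq2 called 484 genes higher and 1078 lower beyond the cutoff, edgeR 329 and 1528, and limma 268 and 1741.

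The members and gene lists were chosen with earlier results of these data known. Named genes are the 5 highest by mean, the up to 8 highest and 8 lowest past the cutoff, list members with a mean of at least 50, and the 4 that move most across 0 with trend removal. Others are said to be chosen after their values were seen. Depth limits the precision of sparse genes, and per-library totals cover listed genes only.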

Additional observations from a re-analysis of the deposited data

How the results depend on the processing

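The counts of lincRNAs beyond the cutoff (41 higher, 79 lower) became 13 and 27 with a pseudocount of 5, 7 and 12 with at least 10 reads in every library, 73 higher with recomputed size factors, 80 and 33 with quantile normalization, 72 higher with DESeq2, 24 and 49 with the trend of GC content and length removed, and 26 and 44 among members overlapping no other gene, where only 197 members remain. All listed genes gave 114 and 1372 with a pseudocount of 5, and 89 and 1327 of 9783 under the read filter. For the best measured (6 and 12) they became 17 and 6 with recomputed size factors, 19 and 6 with quantile normalization, 17 and 6 with DESeq2, 2 and 7 after trend removal, and 6 lower without overlapping members. At adjusted p below 0.05, 105 were higher after trend removal, 64 lower under the read filter (210 members), and 121 higher and 76 lower without overlapping members. The median log2 fold change (0.69) was 0.66 with a pseudocount of 5, 0.79 under the read filter, 0.64 with library size scaling, 0.92 with recomputed size factors, 1.01 with quantile normalization, 0.94 with DESeq2, 0.78 with edgeR, 0.033 after trend removal and 0.87 without overlapping members. Trend removal turned BAIAP2-DT to −0.32, SNHG4 to 0.081, PVT1 to −0.080, AC093702.1 to −0.54, AC015912.3 to −0.41, FTX to 0.036 and AL390728.6 to 0.54. Leaving out 1 library each gave 38 to 51 higher and 66 to 81 lower beyond the cutoff, 4 to 9 and 5 to 15 of the best measured, 194 to 196 higher and 135 to 142 lower at adjusted p below 0.05, medians of 0.65 to 0.70, and share differences of −0.000523 to 0.0111 percentage points. Where the cause of a change is not the smaller set of genes or the shift of the median of all genes, the cause was not tested.

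Libraries with the same number did not deviate together (correlations −0.0178, −0.246 and −0.141), so the numbers were not taken as pairs. With the replicate number as a block, 41 lincRNAs were higher and 79 lower beyond the cutoff, 6 and 12 of the best measured, and 197 and 143 at adjusted p below 0.05, with a median of 0.69. No library correlated best with the library of its own number.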

Other observations

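Among lincRNAs with an approved LINC symbol and among those known only by a clone name, more were higher than lower. Among all listed genes 47.6% were higher, a share near that of the clone-named lincRNAs. Of 73 with a LINC symbol, 49 (67.1%) were higher and 24 lower, and their median log2 fold change was 0.82, at a median mean count of 63.6 and a median GC content of 51.5%. Of 206 with a clone name, 108 (52.4%) were higher and 98 lower, with a median of 0.61, a median mean count of 28.6 and 47.7% GC. Beyond the cutoff the LINC-named genes split 7 higher (9.59%) to 9 lower (12.3%) and the clone-named genes 30 (14.6%) to 67 (32.5%). The shares of all listed genes were 2.54% and 16.5%. With the trend of GC content and length removed the medians were 0.20 and −0.06. The LINC-named genes were then 44 above 0 and 29 below, the clone-named genes 96 above and 110 below. The difference between the naming classes was not tested.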
